A study of Mus musculus with 4 samples.

Results

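The transcripts of 9 acute phase protein genes, Hp, Saa1, Saa2, Saa3, Serpina3n, Serpina3g, Ptx3, Orm1 and Cp, were examined in mouse primary myoblasts with and without Tet2, an enzyme that oxidises methylated cytosine in DNA. The genes were chosen by symbol, and each matched 1 of the 24445 genes of the deposited expression table. All cells came from C57BL/6 mice, which the study's methods describe as young adult males unless otherwise specified. The Tet2 KO mice carried a constitutive deletion of the third exon of Tet2, and the WT mice carried an intact gene, so Tet2 was lacking in every cell of the KO animals and not in muscle cells alone. In both groups, muscle stem cells (satellite cells) of the hindlimb were isolated by sorting for CD45-, CD11b-, CD31- and Sca1- cells that carried CD34 and Integrin a7. They were then grown for at least 3 days in T cell medium on collagen type I, until they had become MyoD+ myoblasts, and total RNA was sequenced. There were 2 libraries from WT and 2 from Tet2 KO cells. The table gives for each gene and group 1 FPKM value, a fragment count scaled by transcript length and by the mapped fragments of the library, so no spread between libraries, n or test is given here beside any value, and the differences described are differences between these pooled values.

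Acute phase proteins are plasma proteins whose amounts shift within hours of infection or injury. Most are made by hepatocytes in answer to interleukin-6, interleukin-1 and related cytokines, which act through STAT3, NF-kappaB and the C/EBP factors. Some members are made outside the liver: Saa3 and Ptx3 are known from macrophages, fibroblasts and other cells at the site of inflammation, and Serpina3g is an intracellular protease inhibitor rather than a plasma protein. Tissue damage in muscle sets off the same cytokines, and leukocytes that enter the muscle store several of these proteins or make them.

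Among the 9 genes, 5 had a mean of at least 1 FPKM over both groups, and each of those 5 reached 1 FPKM in either group. Ptx3, Hp, Saa3 and Serpina3g were at least 2-fold higher in Tet2 KO, Cp was slightly lower, and none was at least 2-fold lower. Here 2-fold means a log2 ratio of at least 1 (or at most -1) after 1 FPKM was added to both values, a pseudocount that makes the ratios of low genes smaller. By the same rule, 2.08% of the 11692 genes with a mean of at least 1 FPKM (243 genes) were at least 2-fold higher in Tet2 KO and 1.21% (142 genes) at least 2-fold lower. The median log2 ratio of the 5 genes was 1.17, beside -0.0044 for all genes at that level. Saa1, Saa2, Serpina3n and Orm1, which stayed below 1 FPKM in both groups, are not in this count or median. Summed over all 9 genes, the level was 61.6 FPKM in Tet2 KO against 25.8 FPKM in WT, a ratio of 2.39. The members were chosen with earlier results of these data known, so the directions of the 4 higher genes are not independent evidence. One of them, Hp, is also among the genes that the study chose to display from these same libraries.

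**Figure D1:**
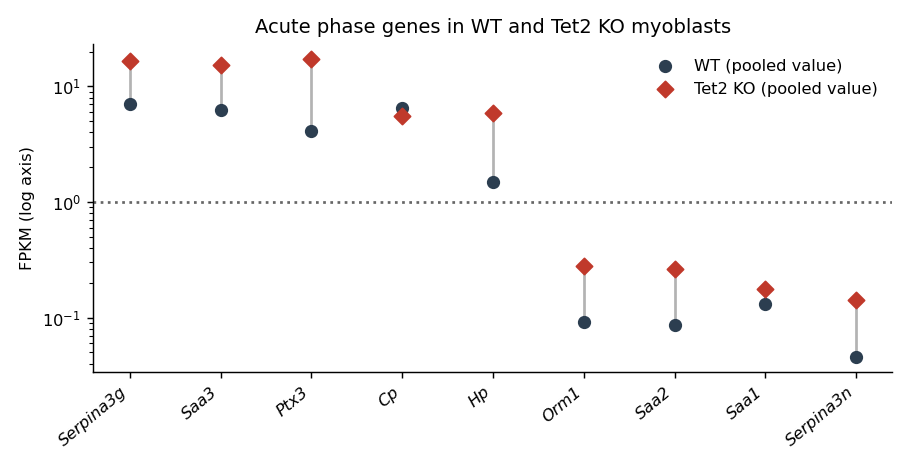
Pooled FPKM (log axis) of the 9 acute phase genes in WT (circles) and Tet2 KO (diamonds), ordered by mean level, with 1 value per gene and group and hence no error bars; the dotted line marks 1 FPKM. Ptx3, Serpina3g, Saa3 and Hp lie between 1.49 and 7.08 FPKM in WT and between 5.89 and 17.3 FPKM in Tet2 KO, the values of Cp nearly meet, and 4 genes lie below 0.3 FPKM in both groups.

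The sequences just upstream of these genes are given first, since genes with a sizeable difference and their nearly silent relatives can then be compared by letters. RefSeq promoters (build GRCm38.p6, another build than the mm9 of the expression table) were at hand for 7 of the 9 genes. Each window holds the 250 bases before the transcription start, written 5′ to 3′ on the strand of the gene. Capitals mark matches on either strand. The patterns were TTNNGNAA (a loose form of the site of C/EBP factors), TTCNNNGAA (the site of STAT factors) and the NF-kappaB consensus. Ptx3, Saa3 and Serpina3g are shown as genes at least 2-fold higher in Tet2 KO. Saa1 and Serpina3n are shown as the relatives of the last pair that stayed below 1 FPKM.

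The Ptx3 window is chr3:66219637-66219886 on the plus strand, and its single C/EBP match starts 57 bases before the transcription start.
Ptx3: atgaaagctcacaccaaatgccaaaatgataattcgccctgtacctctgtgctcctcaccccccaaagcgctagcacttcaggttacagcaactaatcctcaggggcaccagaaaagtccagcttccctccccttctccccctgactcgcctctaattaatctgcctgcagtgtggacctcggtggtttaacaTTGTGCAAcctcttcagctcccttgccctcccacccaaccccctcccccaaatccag
The windows of Saa3 (chr7:46715677-46715926) and Saa1 (chr7:46742981-46743230) are on the minus strand. Saa3 holds 4 C/EBP matches, starting 216, 191, 129 and 99 bases before the start, and Saa1 holds 2, at 182 and 86 bases.
Saa3: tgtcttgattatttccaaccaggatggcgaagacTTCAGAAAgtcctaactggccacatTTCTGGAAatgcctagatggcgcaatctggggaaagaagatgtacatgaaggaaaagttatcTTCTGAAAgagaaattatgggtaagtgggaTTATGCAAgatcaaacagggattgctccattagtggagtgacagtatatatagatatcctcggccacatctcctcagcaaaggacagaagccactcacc
Saa1: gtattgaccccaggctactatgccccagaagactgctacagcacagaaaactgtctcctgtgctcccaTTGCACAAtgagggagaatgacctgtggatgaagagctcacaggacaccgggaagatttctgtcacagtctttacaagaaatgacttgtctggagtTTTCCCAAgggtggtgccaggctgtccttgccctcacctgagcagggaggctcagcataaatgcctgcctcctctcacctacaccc
The windows of Serpina3g (chr12:104235897-104236146) and Serpina3n (chr12:104406458-104406707) are on the plus strand. Serpina3g holds 2 C/EBP matches, at 80 and 62 bases, the first of which overlaps an NF-kappaB match at 85 bases, and a STAT match at 33 bases. Serpina3n holds 2 C/EBP matches, at 227 and 56 bases.
Serpina3g: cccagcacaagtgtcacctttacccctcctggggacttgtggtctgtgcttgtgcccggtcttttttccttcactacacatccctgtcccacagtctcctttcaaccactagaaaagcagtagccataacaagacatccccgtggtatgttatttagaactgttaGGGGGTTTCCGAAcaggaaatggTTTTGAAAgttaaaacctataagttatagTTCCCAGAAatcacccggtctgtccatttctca
Serpina3n: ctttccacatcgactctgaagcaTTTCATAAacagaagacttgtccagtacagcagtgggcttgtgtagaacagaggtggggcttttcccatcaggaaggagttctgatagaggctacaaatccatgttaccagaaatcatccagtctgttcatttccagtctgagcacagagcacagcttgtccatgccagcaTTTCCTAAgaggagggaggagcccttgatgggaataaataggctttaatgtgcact

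With 2 start sites listed for Cp, whose windows overlap, the 7 genes had 8 windows. The C/EBP letters were found in all 8, whereas 36.8% of the 32851 RefSeq promoter windows of that length hold them. The 8 windows are not independent cases, because those of Cp overlap and the Saa and Serpina3 members are relatives of each other. A STAT match was found in 1 of the 8, that of Serpina3g, against 7.02% of all windows, and an NF-kappaB match likewise in 1, that of Serpina3g, against 3.90%. The neighbouring gene Serpina3f, which is not a member, also holds a STAT match in both of its windows, at 121 and 210 bases. Serpina3f was slightly lower in Tet2 KO (log2 ratio -0.31). The letters TATAAA, searched on the strand of the gene only, stood in 1 of the 8, at 25 bases before the second start site of Cp, against 7.59% of all windows. The C/EBP letters did not part the genes by level, since the nearly silent Saa1, Saa2 and Serpina3n hold them too. Across the alignable part of the windows Saa1 and Saa2 were 95.6% identical (249 aligned bases), Saa1 and Saa3 71.1% (201 bases), and Serpina3g and Serpina3n 75% (152 bases). Tet2 acts mainly on cytosines that precede guanines (CpG pairs). The windows held 4 such pairs in Ptx3 and in Serpina3g, 3 in Saa3, 2 in Saa2 and Cp, and 1 in Saa1 and Serpina3n. The median over all windows was 6, and only Saa1 and Serpina3n lay outside the quartiles (2 and 16). Methylation was not analysed here, neither in these windows nor at sites farther from the genes.

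Ptx3, the long pentraxin that binds microbes and activates complement, showed the widest gap of the members. Its level was 17.3 FPKM in Tet2 KO against 4.12 FPKM in WT, a ratio of 4.20 and a log2 ratio of 1.84. By log2 ratio it ranked 49th of the 11692 genes. Among the 2625 genes with a mean level within 1.5-fold of that of Ptx3, 0.533% had a log2 ratio at least as high. Such shares, here and below, count genes on the same side of 0 only. In WT, the order of the expressed members was Serpina3g, Cp, Saa3, Ptx3 and Hp, and in Tet2 KO it was Ptx3, Serpina3g, Saa3, Hp and Cp, so Ptx3 led only in Tet2 KO; with no spread, neighbours in either order cannot be told apart. The gene has 3 exons on the plus strand of chromosome 3 (chr3:66023809-66029728, mm9) and lies inside Veph1, a gene on the minus strand, with which it shares no exonic base, and the table gives both the same interval. Veph1 was close to 0, at 0.014 FPKM in both groups. No 50-base stretch of the Ptx3 transcript occurs in the transcript of another gene, so reads of that length from Ptx3 have no rival transcript.

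Of the remaining pentraxins, the classical liver proteins Crp and Apcs were at 0.0120 and 0.0458 FPKM in Tet2 KO and listed at 0 in WT, and Ptx4 was listed at 0 in both. The neuronal pentraxin Nptx1 was the only other pentraxin above 10 FPKM, with 16.5 FPKM in Tet2 KO against 9.51 FPKM in WT (log2 ratio 0.74). Its receptor partner Nptxr was at 2.02 and 1.91 FPKM (log2 ratio 0.05). The pentraxins with a mean of at least 1 FPKM were thus Ptx3, Nptx1 and Nptxr, and not the plasma proteins of the family.

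Hp encodes haptoglobin, which binds haemoglobin released from red cells. Hp was at 5.89 FPKM in Tet2 KO against 1.49 FPKM in WT. Its ratio, 3.94, was close to that of Ptx3, but because its WT level is low the log2 ratio with the pseudocount was 1.47, and 1.98 without it. Hp ranked 114th of the 11692 genes by log2 ratio, and 1.93% of the 1707 genes of like level lay as far above 0. It was the lowest of the 5 expressed members in WT. Hp lies on the minus strand of chromosome 8 (chr8:112099030-112103072, mm9), has 5 exons, and shares no 50-base stretch with another transcript.

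Cp, or ceruloplasmin, is the copper-carrying oxidase that loads iron onto transferrin, and it was the only expressed member that was not higher in Tet2 KO. Its level was 5.55 FPKM in Tet2 KO against 6.53 FPKM in WT, a log2 ratio of -0.20. A gap of that size was common: 15.6% of the 2157 genes of like level lay as far below 0. Second among the expressed members in WT, Cp was last in Tet2 KO, although its own level differed by a factor of 1.18 only. Cp spans 20 exons on the plus strand of chromosome 3 (chr3:19857054-19909145, mm9), and 108 of its exonic bases (1.13%) lie opposite exons of Hps3 on the minus strand. The library kit does not mark the strand, so fragments from those bases cannot be assigned to either gene; Hps3 was at 6.27 and 5.94 FPKM.

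**Figure D2:**
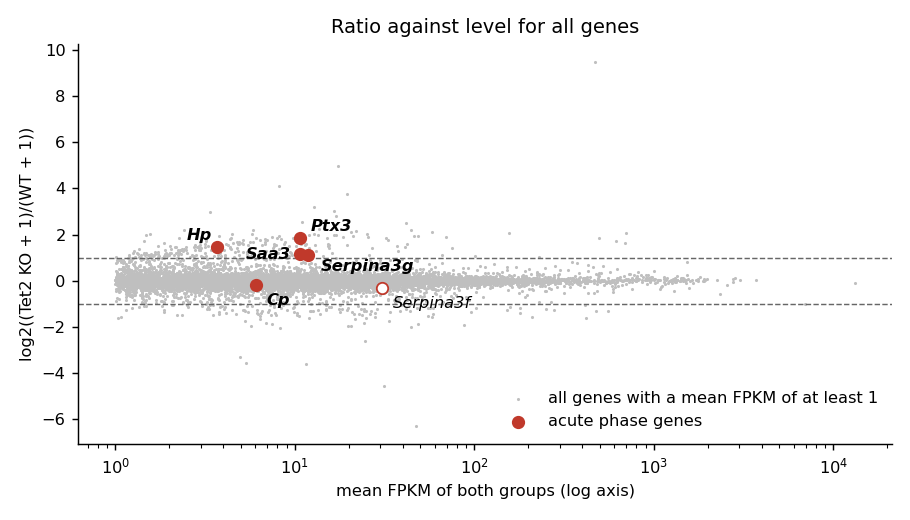
Log2 ratio of Tet2 KO over WT (pseudocount 1 FPKM) against the mean FPKM of both groups (log axis) for the 11692 genes with a mean of at least 1 FPKM (grey), with the 5 expressed acute phase genes filled and Serpina3f open; dashed lines mark 2-fold. Ptx3 (1.84), Hp (1.47), Saa3 (1.17) and Serpina3g (1.13) lie above the upper line, and Cp (-0.20) and Serpina3f (-0.31) lie within the main band of genes.

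The serum amyloid A genes encode small apolipoproteins that ride on high-density lipoprotein during inflammation. Saa3, the form made outside the liver, was at 15.2 FPKM in Tet2 KO against 6.24 FPKM in WT, a ratio of 2.44 and a log2 ratio of 1.17. Its rank was 184 of 11692, and 1.52% of the 2626 genes of like level lay as far above 0. Saa1 and Saa2, the liver forms, were nearly silent, at 0.178 and 0.130 FPKM for Saa1 and 0.266 and 0.0870 FPKM for Saa2 in Tet2 KO and WT. Per length, Saa3 stood far above both of them in either group. Saa4, the constitutive form, was at 0.0188 FPKM in Tet2 KO and listed at 0 in WT.

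All 3 inducible forms sit together on chromosome 7 (mm9): Saa3 at chr7:53967368-53971046 and Saa1 at chr7:53995871-53998350 on the minus strand, and Saa2 at chr7:54007203-54009684 on the plus strand, with 4 exons each. The transcripts of Saa1 and Saa2 are 94.4% identical and share an unbroken stretch of 76 bases, and 10.8% of the 50-base words of Saa1 and 9.09% of those of Saa2 occur in another gene. Their separate values are therefore uncertain. Saa3 is 79.3% identical to Saa1, with 1.87% of its words shared, so few reads of Saa3 could have been divided between them.

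Among the serpins, Serpina3g (also known as Spi2A), an inhibitor of cathepsins in the cytosol, was at 16.7 FPKM in Tet2 KO against 7.08 FPKM in WT, a ratio of 2.36 and a log2 ratio of 1.13. It ranked 193rd of 11692, and 1.60% of the 2683 genes of like level lay as far above 0. Serpina3n, the secreted inhibitor of granzyme B and cathepsin G, was at 0.142 FPKM in Tet2 KO against 0.0458 FPKM in WT. Per length, Serpina3g stood far above it in either group. Serpina3g (chr12:105474455-105480149) and Serpina3n (chr12:105644939-105652539) lie on the plus strand of chromosome 12 (mm9), and each has 5 exons. They belong to a cluster of related genes, of which 11 were listed here. The only other listed gene of the cluster above 1 FPKM was Serpina3f, the neighbour of Serpina3g. Serpina3f was at 27.3 FPKM in Tet2 KO against 34.0 FPKM in WT (log2 ratio -0.31).

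The values of Serpina3g and Serpina3f can be affected by how reads were divided between them, and the part of this in the difference was not tested. The table gives both genes 1 joint interval (chr12:105452754-105480144), although they share no exonic base. Their transcripts are 89.3% identical over 1781 aligned bases, with an unbroken identical stretch of 119 bases, and 11.7% of the 50-base words of Serpina3g occur in another gene. Summed, the pair had 44.1 FPKM in Tet2 KO against 41.1 FPKM in WT, a log2 ratio of 0.10, and with the pair taken as 1 gene 3 of the members were at least 2-fold higher. The share of Serpina3g in that sum was 38.0% in Tet2 KO and 17.2% in WT. How near the pair is can be seen in 100 coding bases from the middle of the alignment, in which capitals mark the 8 positions where the transcripts differ. They are bases 664 to 763 of the Serpina3g transcript, in its exons 3 and 4 (chr12:105477434-105478471, mm9), and bases 1096 to 1195 of that of Serpina3f, in its exons 5 and 6 (chr12:105456605-105457643).
Serpina3g: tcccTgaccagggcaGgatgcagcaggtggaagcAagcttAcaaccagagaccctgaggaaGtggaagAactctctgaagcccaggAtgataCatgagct
Serpina3f: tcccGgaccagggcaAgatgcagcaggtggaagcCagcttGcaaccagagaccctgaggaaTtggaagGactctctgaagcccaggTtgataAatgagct

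**Figure D3:**
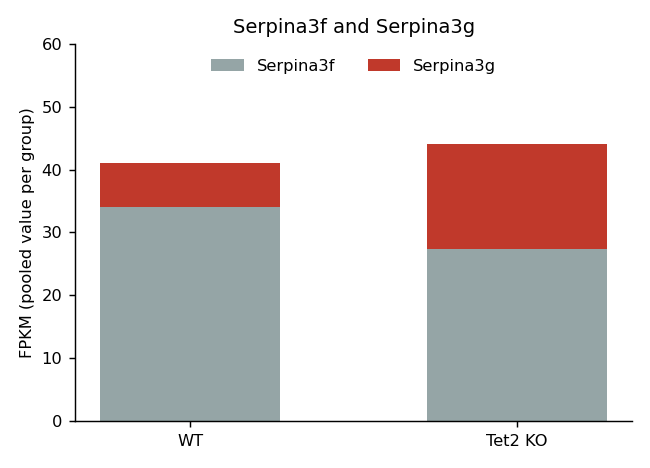
Pooled FPKM (linear axis from 0) of Serpina3f and Serpina3g, stacked, in WT and Tet2 KO, with 1 value per gene and group and hence no error bars. The stacks reach 41.1 FPKM in WT and 44.1 FPKM in Tet2 KO, while the Serpina3g part is 7.08 FPKM in WT and 16.7 FPKM in Tet2 KO.

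Orm1, the alpha-1-acid glycoprotein that carries basic drugs and lipids in plasma, was at 0.281 FPKM in Tet2 KO against 0.0910 FPKM in WT. Its paralog Orm2 was at 0.0314 and 0.0935 FPKM, the other way round, and Orm3 was listed at 0 in both. Because 20.4% of the 50-base words of Orm1 (chr4:63005594-63009197, mm9, 6 exons, plus strand) occur in Orm2 or Orm3, the split among them is uncertain. For Saa1, Saa2, Serpina3n and Orm1 the read depth behind such low values is unknown, and no ratio between the groups is drawn from them.

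Further genes known as positive acute phase proteins were read next. Of 30 such genes 8 had a mean of at least 1 FPKM, 2 were at least 2-fold higher in Tet2 KO and none at least 2-fold lower, with a median log2 ratio of 0.65. These were Lcn2, the siderophore-binding lipocalin, with 16.9 and 3.91 FPKM in Tet2 KO and WT (log2 ratio 1.86), and C3, the central complement protein, with 6.85 and 1.66 FPKM (log2 ratio 1.56). Lowest was Cfb, complement factor B, at 1.42 and 1.47 FPKM (log2 ratio -0.03), and most abundant was Mt1, the metal-binding metallothionein, at 253 and 205 FPKM (log2 ratio 0.30). The liver-made fibrinogen chains Fga, Fgb and Fgg stayed at or below 0.0140 FPKM in both groups. Of 8 negative acute phase proteins, which fall in plasma during inflammation, only the retinol carrier Rbp4 (log2 ratio 0.80) and transferrin, Trf (0.29), had a mean of at least 1 FPKM.

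The inducers were examined in turn. Of 9 cytokines known to induce acute phase genes 7 had a mean of at least 1 FPKM, 6 of which were above a log2 ratio of 0, with a median of 0.55. Lif, a cytokine of the interleukin-6 family, was the only one at least 2-fold higher with the pseudocount, with 9.93 and 3.55 FPKM in Tet2 KO and WT (log2 ratio 1.27). The most abundant, Il6, was at 22.8 and 11.1 FPKM (log2 ratio 0.98), just short of 2-fold with the pseudocount and at a ratio of 2.06 without it. Tnf, tumour necrosis factor, was at 2.29 and 0.699 FPKM, a ratio of 3.27 without the pseudocount and a log2 ratio of 0.95 with it. The lowest was Il1b, at 2.08 and 2.81 FPKM (log2 ratio -0.31). All 9 receptor chains listed for these cytokine families passed 1 FPKM in the mean and none was 2-fold apart with the pseudocount, with a median of 0.25. They ranged from -0.12 for Il6st, the shared chain gp130 and the most abundant, to 1.00 for Il1rl1, the interleukin-33 receptor of the interleukin-1 receptor family. The unrounded value of Il1rl1 lay just under the threshold, and its ratio without the pseudocount was 2.17.

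None of the 16 signalling proteins and transcription factors with a mean of at least 1 FPKM, out of 19 listed, was 2-fold apart, and their median was 0.18. Cebpa, a C/EBP factor, was highest at 0.46, with 12.6 and 8.87 FPKM in Tet2 KO and WT. Jun was lowest at -0.22, with 48.2 and 56.1 FPKM. Hnf4a and Onecut1, which direct liver expression, stayed below 1 FPKM. Beside the median of 1.17 of the 5 acute phase genes, the listed inducers, receptors and factors thus had medians between 0.18 and 0.55. These are transcript levels, and neither the proteins nor their activity were measured.

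**Figure D4:**
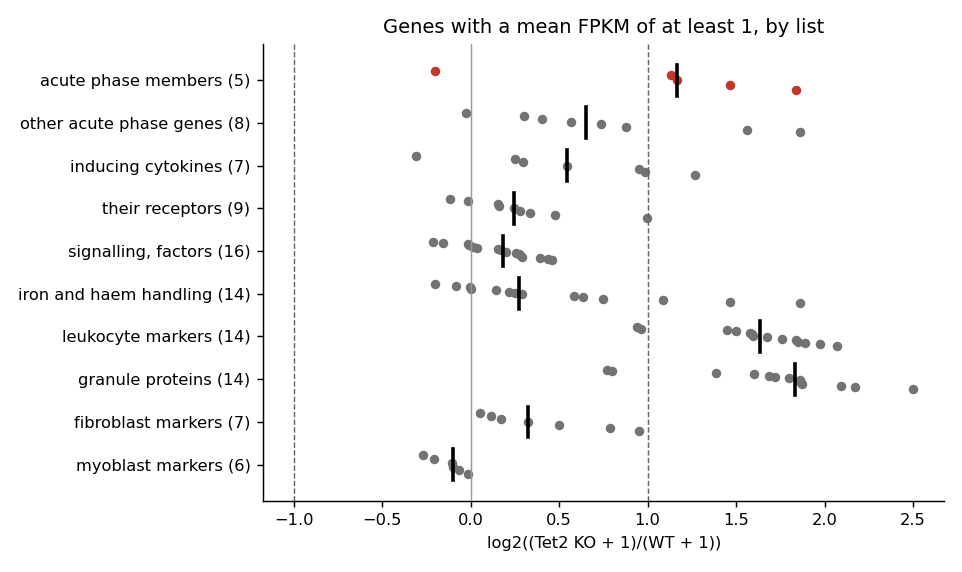
Log2 ratio of Tet2 KO over WT (pseudocount 1 FPKM) for each gene with a mean of at least 1 FPKM (points) in 10 gene lists, with the number of genes in parentheses and the list median as a bar; dashed lines mark 2-fold. The median is 1.17 for the acute phase genes, 0.65 for further acute phase genes, 0.18 for signalling proteins and factors, 1.64 for leukocyte markers, 1.83 for granule proteins and -0.10 for myoblast markers.

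Markers of the cell types that can make these proteins were read beside them. The 6 myoblast markers were abundant, with a sum of 1028 FPKM in Tet2 KO against 1153 FPKM in WT, all 6 slightly lower in Tet2 KO (median log2 ratio -0.10). Myod1, the factor that the label of the cells names, was at 313 and 336 FPKM. Hepatocyte markers were near 0: none of 10 exceeded 0.0678 FPKM, and Serpina1c was listed at 0 in both groups. Adipocyte markers, which matter because fat makes Saa3 and Hp, stayed at or below 0.132 FPKM, with Adipoq listed at 0 in both. Of 10 fibroblast markers 7 had a mean of at least 1 FPKM, all 7 with a log2 ratio above 0. None was 2-fold apart with the pseudocount (median 0.32, sums 490 and 447 FPKM). Highest by log2 ratio was Dcn, at 7.04 and 3.15 FPKM (0.95, and a ratio of 2.23 without the pseudocount). The most abundant fibroblast marker, Ly6a, which encodes the Sca1 antigen absent from the sorted cells, was at 288 and 278 FPKM. Endothelial markers were low, with Pecam1 at 1.48 and 1.63 FPKM as the only 1 of 7 above the level.

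Leukocyte markers were set beside the acute phase genes. All 14 leukocyte genes in the table were higher in Tet2 KO, 12 at least 2-fold, with a median log2 ratio of 1.64 and ratios, taken without the pseudocount, from 2.11 for Cd68 to 5.15 for Adgre1. None was at 0 in either group. Summed, they had 452 FPKM in Tet2 KO against 113 FPKM in WT, a ratio of 3.99, of which Lyz2, the lysozyme of myeloid cells, made up 253 and 59.5 FPKM. Ptprc, which encodes the CD45 antigen that the sort removed, was at 5.67 and 1.36 FPKM. The 14 neutrophil granule genes, Lcn2 among them, were all higher too, 12 at least 2-fold, with ratios from 2.97 for Retnlg to 6.07 for Ltf and a sum of 2097 against 586 FPKM. The ratios of Ptx3 (4.20) and Hp (3.94) lay within the range of both lists, and that of Cp (0.851) outside both. Those of Saa3 (2.44) and Serpina3g (2.36) lay within the range of the leukocyte list alone. In that list only Cd68 (2.11) and Laptm5 (2.15) were lower than these 2 genes, and the next, Fcer1g, was at 3.39. The part of leukocyte RNA in the acute phase values was not tested. In bulk RNA, fewer cells of a type and less RNA per cell cannot be told apart.

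Genes next to the acute phase genes on the chromosome were also read. Within 250 kb of the 9 genes, the table held 26 neighbours with a mean of at least 1 FPKM that are not members, and none was 2-fold apart, with log2 ratios from -0.53 for Gm1943 to 0.50 for Tmem268. Over all genes at that level 2.08% were at least 2-fold higher and 1.21% at least 2-fold lower, so none among 26 is near those shares. Around Hp, Txnl4b at 1.08 kb and Dhx38 at 9.53 kb were at -0.08 and 0.01, and the 8 neighbours ranged from -0.53 to 0.11. Around Saa3, Saal1 at 1.32 kb was at 0.07 and Ldha, the abundant lactate dehydrogenase, at 0.08, and the 7 neighbours ranged from -0.10 to 0.08. Ptx3 had no such neighbour. Cp had 4, among which the values ran from -0.02 for Hltf to 0.09 for 4632415L05Rik. Serpina3g had Serpina3f alone as a neighbour at that level.

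**Figure D5:**
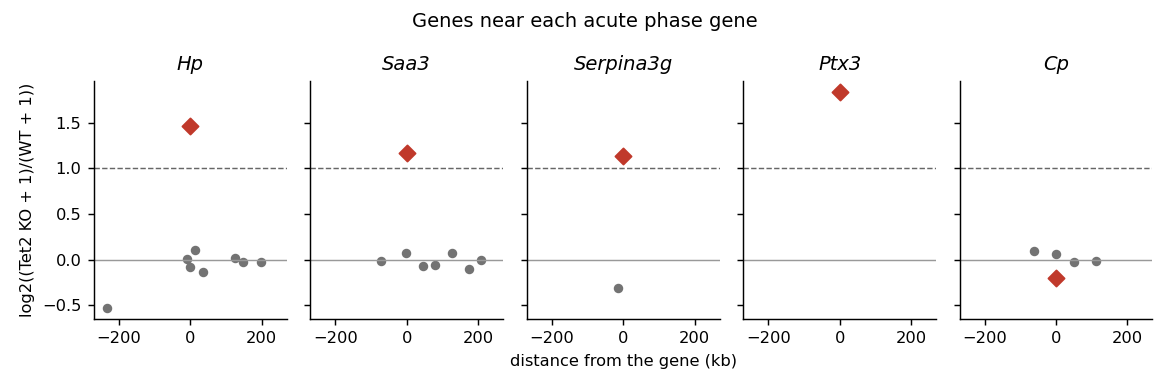
Log2 ratio of Tet2 KO over WT (pseudocount 1 FPKM) of each expressed acute phase gene (diamond) and of the genes within 250 kb with a mean of at least 1 FPKM (circles), against the distance from the gene in kb; the solid line marks 0 and the dashed line 2-fold. Ptx3 has no neighbour at that level, and the neighbours of Hp, Saa3 and Cp lie between -0.53 and 0.11. Hp, Saa3, Serpina3g and Ptx3 themselves lie above 1.

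The targeted gene was at 5.79 FPKM in Tet2 KO against 6.64 FPKM in WT, a log2 ratio of -0.17. A value for the whole gene cannot show the loss of its deleted exon, so it does not check the labels.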

How the data were processed

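Libraries were made from total RNA with an unstranded TruSeq kit. The authors removed adapters and poor reads, aligned read pairs to mm9 with TopHat2 2.0.13 and estimated expression with Cuffdiff 2.2.1 (from the study's methods and processing notes). The gene annotation was not given in the sources used here. The values deposited by the authors are FPKM, 1 per gene and group. They were read here as pooling the 2 libraries of each group, a step the sources do not describe, and the depth per library is unknown. The remaining columns hold the authors' own comparison (log2 ratio, statistic, p-value, q-value and a significance flag) and were not used.

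From the FPKM values, log2((Tet2 KO + 1)/(WT + 1)) was computed with a pseudocount of 1 FPKM, and genes with a mean of at least 1 FPKM were kept for counts and medians. Genes of like level are those with a mean FPKM within 1.5-fold. No test was possible with 1 value per group, so the count of members is set beside the share of all genes past the same fold. The scripts were tested on simulated data. Other pseudocounts, filters, scalings, folds and the summing of near-identical genes were tried as alternatives.

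Named genes are the 9 members, the genes of further lists past 2-fold, otherwise the most abundant and the extreme ones, genes within 250 kb, and Tet2. Further genes (for example Crp, Saa4, Tnf, Cd68 and Ptprc) were named after their values were seen, to complete a family or a range. The members and lists were chosen with earlier results of these data known. Gene positions are from GENCODE vM1 (mm9), in which 20442 symbols (83.6%) were found; 99.2% of those with 1 annotated gene overlapped the interval of the table. Distances between genes use these positions, or the interval of the table for symbols without a single match. Promoters are from RefSeq (GRCm38.p6). Copies of transcripts were searched with BLAST+ 2.17.0, and values were computed in Python 3.11.15 (pandas 2.3.3, numpy 2.4.6) and drawn with matplotlib 3.10.9.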

Additional observations from a re-analysis of the deposited data

How the results depend on the processing

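No paired analysis was possible because the table holds 1 pooled value per gene and group, and for the same reason no library could be left out in turn. Without a spread between libraries, a value is taken as moved when it differs by over 1.5-fold. With a pseudocount of 5 FPKM, 1 member (Ptx3) was at least 2-fold higher, beside 77 genes higher and 64 lower in all. With a pseudocount of 0.1 FPKM, 215 genes in all were lower. With no filter on low values, the median log2 ratio was 0.23 over all 9 members, since the nearly silent ones are included. With a mean of at least 5 FPKM, 109 genes in all were higher and 106 lower, and 3 members were higher, Hp falling under that level. A fold of 1.5 gave 435 genes higher and 338 lower, and a fold of 3 gave 1 member higher (Ptx3), with 81 genes higher and 25 lower. Under every alternative run, 0 members were lower past the fold. Summing Serpina3g with its relatives other than Serpina3n left a log2 ratio of 0.11, and summing it with Serpina3f alone, an alternative chosen after seeing the data, left 0.10, so that 3 members were higher. For single members, 39 values kept within 1.5-fold and 9 moved, none with a change of sign. These counts include the nearly silent members, from which no ratio is read. The moved values were those of Saa2, Serpina3n and Orm1 with a pseudocount of 0.1 FPKM or none, the sums of Serpina3g, and Hp. With a pseudocount of 5 FPKM the log2 ratio of Hp was 0.75. Rescaling to TPM moved the median of all genes to -0.0003. The depth is unknown, so no counting interval can be given, also for the 4 members below 1 FPKM.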

Other observations

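Haptoglobin, ceruloplasmin and lipocalin-2 all handle iron or haem, and the further genes of that pathway can be set beside them. Of 18 genes 14 had a mean of at least 1 FPKM, 11 of them above a log2 ratio of 0, with a median of 0.27. At least 2-fold higher in Tet2 KO were Lcn2, Hp and Slc40a1, the last being the iron exporter ferroportin, with 4.05 and 1.38 FPKM in Tet2 KO and WT (log2 ratio 1.09). Hmox1, the inducible haem oxygenase, was at 137 and 91.3 FPKM (log2 ratio 0.59). Slc11a1, an iron transporter of phagosomes, was at 2.76 and 1.24 FPKM (log2 ratio 0.75). The most abundant was Ftl1, the ferritin light chain, at 1664 and 1398 FPKM (log2 ratio 0.25). The transferrin receptor Tfrc was nearly level, at 117.4 and 117.1 FPKM. The haptoglobin receptor Cd163 and the haem carrier Hpx stayed below 1 FPKM in both groups. Cp had the lowest log2 ratio of the list, and its membrane-bound relative Heph, at 2.55 and 1.29 FPKM, a log2 ratio of 0.63. No value has an error, and these genes were named after their values were seen.

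Within the serpin cluster, Serpina3h was at 0.542 FPKM in Tet2 KO against 0.0282 FPKM in WT. Both values lie below 1 FPKM, and part of the Serpina3g transcript has a near copy (at least 97% identical over at least 50 bases) in Serpina3h.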
